A study of Homo sapiens with 7 samples.

Results

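The mitochondrial carriers of the SLC25 family were taken as every gene whose symbol in the expression table was SLC25A followed by a number. The members described are 40 of the 21305 genes in the table. Of these, 39 reached a mean of 10 normalized counts over the 7 libraries and were tested, and SLC25A18 did not. SLC25A2, SLC25A21, SLC25A31, SLC25A41, SLC25A43, SLC25A47 and SLC25A52 had no row under these symbols in the expression table, so their levels are not known here. All 40 members had an annotated position on hg38, spread over 18 chromosomes.

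The libraries came from 501Mel, a human melanoma line of melanocytic character, infected with lentivirus and selected with puromycin as stable pools of cells. Every pool carried 1 short hairpin RNA under a promoter switched on by doxycycline, and all 7 libraries were from doxycycline-induced cells, controls included. The cell cuts such a hairpin to a short guide that directs the decay of RNA with a matching sequence. The control hairpin against bacterial lacZ (shlacZ) had 3 libraries, and the hairpins sh4 and sh8 against the long non-coding RNA GRASLND had 2 libraries each. RNA was collected 3 days after induction, and no interferon was added. The sources used here do not say that a hairpin was tested in more than 1 pool, so an effect of the hairpin and a property of its pool cannot be told apart.

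SLC25 carriers sit mostly in the inner mitochondrial membrane and exchange metabolites, nucleotides, amino acids, cofactors and ions between the cytosol and the matrix. Most share a fold built of repeated pairs of membrane helices and alternate between a state open to the cytosol and a state open to the matrix. They are encoded in the nucleus and imported through the outer membrane by TOMM70 and the TIM22 complex. Through them, ATP leaves the matrix, phosphate and nucleotides enter, and the malate-aspartate shuttle carries reducing power inwards. In pigment cells, MITF and PGC1-alpha (PPARGC1A) are known to drive the expression of many mitochondrial genes.

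The depth was between 13337317 and 22855232 reads per library. The first shlacZ library stood apart from the other controls. Its reads gave a chi-square per gene of 31.7 and 30.8 on average against them, compared with 9.47 between these 2. It held the lowest value of the 3 controls for 21 of the 39 tested members, and for 44.9% of all tested genes. The labels do not say whether replicates were separate cultures, so the p-values measure only the spread between these libraries. In bulk RNA, fewer cells of a kind and less RNA per cell cannot be told apart. Of the 7 melanocyte markers, the pigment cell factors MITF and SOX10 and the genes MLANA, PMEL, TYR, TYRP1 and DCT, all had at least 893 normalized counts in every library. Of 8 markers of other cell types, COL1A1 alone was in the table, at 5.24 to 16.4 normalized counts per library. GRASLND (ENSG00000228203, chromosome 2, 6911754 to 6918734, minus strand) was measured at 309, 330 and 290 normalized counts with the control hairpin, 175 and 131 with sh4, and 227 and 163 with sh8. All 4 knockdown libraries lay below all 3 controls. The log2 fold change was -0.85 (SE 0.19, adjusted p = 0.0402) for both hairpins together, -1.02 (adjusted p = 0.00662) for sh4 and -0.68 (adjusted p = 0.110) for sh8. The pooled value was past the threshold without sh8 replicate 1 (adjusted p = 0.0171) and missed it without any one of the other 6 libraries (adjusted p = 0.0636 to 0.182).

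The question put to the carriers was which of them changed when GRASLND was lowered, and whether sh4 and sh8 moved them alike. A normalized count is a read count divided by a size factor of its library, and a log2 fold change is a difference of mean log2(normalized count + 1), tested with limma across all 15420 genes with a mean of at least 10. A member rose or fell where the Benjamini-Hochberg adjusted p was under 0.05, and it also passed the fold threshold of the study where its log2 fold change was over 1 in size. With both hairpins pooled, 2 of the 39 tested members (5.13%), the pyrimidine nucleotide carrier SLC25A33 and the iron carrier SLC25A37, passed the adjusted p, against 4.61% of all tested genes. Both fell, against 2.06% of all genes that fell, and 0 members rose, against 2.55% of all genes. At an unadjusted p under 0.05, 4 members were higher and 9 lower (11.2% and 12.9% of all genes), and limma-voom on the recovered reads called 0 higher and 1 lower (2.39% and 1.77%). Taken as the mean of both hairpins in the fit of 3 groups, which estimates the spread within each hairpin, the same comparison had 7 members past the adjusted p (17.9%, against 16.4% of all genes). Only SLC25A33 passed the fold threshold as well, as did 1.99% of all genes.

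Under sh4, 10 members (25.6%) passed the adjusted p, against 22.5% of all genes. SLC25A14, SLC25A24, SLC25A35 and SLC25A42 rose (10.3% of the members, against 10.5% of all genes), and SLC25A13, SLC25A23, SLC25A33, SLC25A36, SLC25A37 and SLC25A39 fell (15.4%, against 11.9%). SLC25A14, SLC25A33, SLC25A35 and SLC25A42 also passed the fold threshold (10.3%, against 8.16%). At an unadjusted p under 0.05, 6 members were higher and 11 lower (17.2% and 18.9% of all genes). The balance of rises and falls turned with the method, since limma-voom called 5 higher and 3 lower (15.3% and 9.75% of all genes) and libraries scaled to equal totals gave 4 and 3. Under sh8, SLC25A33 alone passed (2.56% of the members, against 2.92% of all genes), as a fall (1.54% of all genes fell), and it passed the fold threshold too (1.15% of all genes). Here 0 members rose, against 1.38% of all genes, although 3 were higher and 9 lower at an unadjusted p under 0.05 (8.85% and 9.69% of all genes), and limma-voom called 1 higher and 1 lower (1.69% and 1.56%). Between the hairpins, SLC25A23 and SLC25A48 were lower under sh4 than under sh8 (5.13% of the members). Among all genes 7% differed, 3.33% lower and 3.67% higher under sh4, and 3.19% also passed the fold threshold, as did SLC25A48. No member was called higher under sh4 than under sh8. At an unadjusted p under 0.05 the direct comparison had 1 member higher and 5 lower (11.3% of all genes in each direction), and limma-voom called 0 higher and 2 lower (5.84% and 2.67%). With all 7 libraries, the members' shares past the adjusted p, in both directions together, were near those of all genes in each comparison. At an unadjusted p under 0.05, however, the lower side held 9 of 39 members pooled, 11 under sh4 and 9 under sh8. These shares were above the 12.9%, 18.9% and 9.69% of all genes, and the higher side was not above its background. Whether this excess is more than chance was not tested. The comparisons of sh4 and of sh8 with the control share the same 3 shlacZ libraries.

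Without shlacZ replicate 1, the members past the adjusted p numbered 4 in the pooled comparison (10.3%, against 4.52% of all genes) and 17 under sh4 (43.6%, against 31.5%). They numbered 7 under sh8 (17.9%, against 10.4%) and 5 between the hairpins (12.8%, against 12.8%). The added falls under sh4 included the ADP/ATP carriers SLC25A5 and SLC25A6 and the phosphate carrier SLC25A3. Without shlacZ replicate 2 the pooled number was 0 (0.415% of all genes) and the sh4 number was 6 (15.4%, against 14.6%). Without shlacZ replicate 3 they were 0 (0.571% of all genes) and 4 (10.3%, against 14.9%). Without sh4 replicate 1 or sh4 replicate 2, the number under sh4 was 2 in each case (10.3% and 9.16% of all genes). All 4 knockdown libraries lay above all controls for 3 members (SLC25A24, SLC25A29 and SLC25A42), while 10.2% of all genes did so. They lay below all controls for 5 members (SLC25A10, SLC25A15, SLC25A33, SLC25A37 and SLC25A39), against 11% of all genes.

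**Figure D1:**
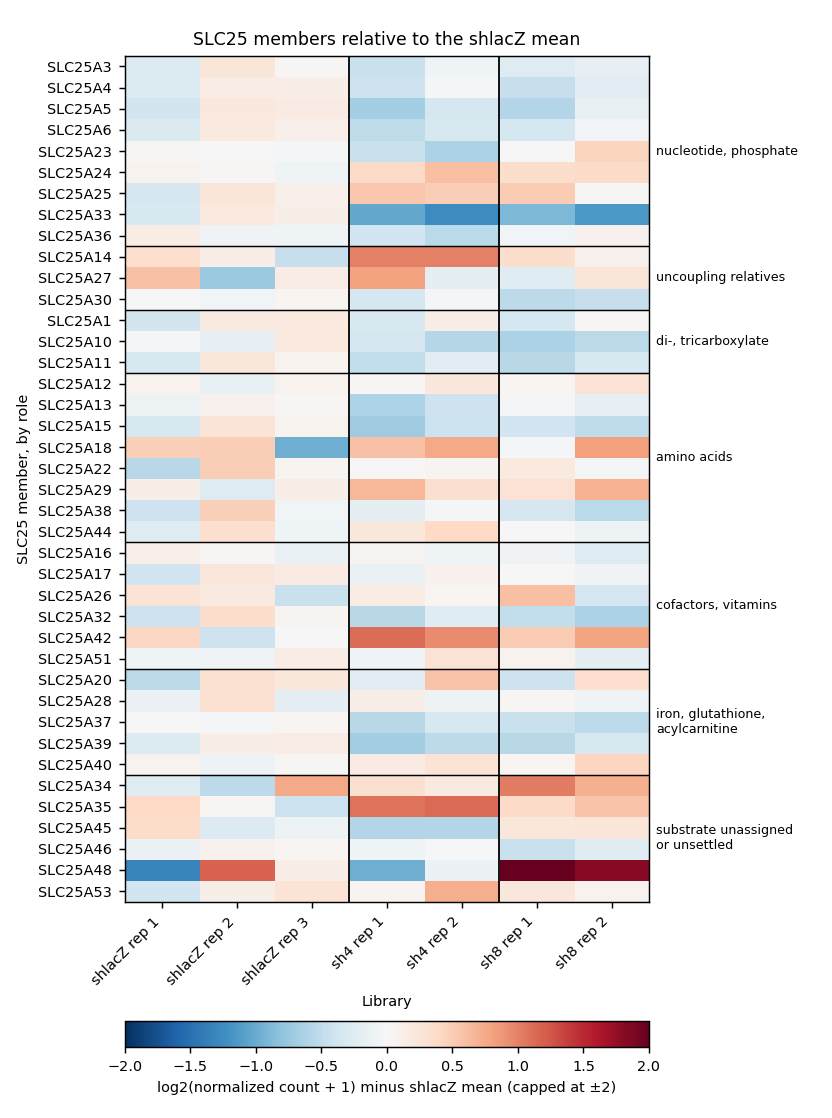
Difference of log2(normalized count + 1) from the shlacZ mean for all 40 members (rows, by role) in the 7 libraries (columns), with red for higher and blue for lower values and the colour capped at 2 in size. SLC25A33 is blue in all 4 knockdown libraries, whereas SLC25A48 is deep red in the sh8 libraries and scattered over the controls.

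Across the 39 tested members, the median log2 fold change was -0.09 for both hairpins pooled, -0.05 for sh4 and -0.04 for sh8, while the median over all genes was -0.01 in each case. The pooled change was negative for 22 members and positive for 17. With libraries scaled to equal totals, the members' median became -0.03 in the pooled comparison and 0.05 for sh4, where all genes had medians of 0.05 and 0.09. Under both of these scalings the members' median for sh4 lay slightly below that of all genes, and with quantile normalization it lay slightly above (-0.0060 against -0.026). The summed normalized counts of the 40 members came to 32689, 39467 and 36838 for shlacZ, 28287 and 31402 for sh4, and 31755 and 33621 for sh8. In these sums the lowest control lay within the range of the sh8 libraries. As a share of all normalized counts, the family held 0.203% ± 0.00870 (SD, n = 3) in the controls. This share was 0.179% ± 0.00774 (SD, n = 2) for sh4, and for sh8 it was 0.185% ± 0.00646 (SD, n = 2). By this share every knockdown library, at 0.173% to 0.190%, was below every control, at 0.194% to 0.212%. SLC25A3, SLC25A13, SLC25A36, SLC25A6 and SLC25A5 together held 53.2% of the members' counts in the controls. The sums and shares thus weigh a few abundant members most and do not describe each member.

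The carriers spanned a wide range of levels in the control cells. Per kilobase of the canonical transcript, the highest were the ADP/ATP carriers SLC25A6 at 2340 ± 398 and SLC25A5 at 2147 ± 462 normalized counts, whose ranges overlapped (SD, n = 3). They were followed by the aspartate-glutamate carrier SLC25A13 at 1449 ± 95.7, the glutathione carrier SLC25A39 at 811 ± 125 and the phosphate carrier SLC25A3 at 789 ± 139, and the last of these did not differ beyond their spread. This order depends on the transcript length used. The canonical transcript of SLC25A3 has 5984 bases, but the median of its 16 annotated transcripts has 1322 bases. With median lengths, SLC25A13 ranked 1 at 7944 per kilobase, SLC25A36 ranked 2 at 4779, and SLC25A39 ranked 7.

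The lowest tested members per kilobase were the carnitine-acylcarnitine carrier SLC25A20 (39.1 ± 11.3), the brain-type uncoupling relative SLC25A27 (15 ± 6.48), the coenzyme A carrier SLC25A42 (14.5 ± 4.2), and SLC25A53 (5.55 ± 1.25) and SLC25A34 (4.31 ± 2.31), which have no settled substrate. In normalized counts without the length, the shlacZ mean was at least 1000 for 11 members, from 100 to 1000 for 19, from 10 to 100 for 9 and under 10 for 1. The member nearest zero was the mitochondrial glutamate carrier SLC25A18, with 4, 4 and 1 reads for shlacZ, 4 and 7 for sh4, and 2 and 6 for sh8. Every member had at least 1 read in every library. Counts this small allow no comparison between groups.

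**Figure D2:**
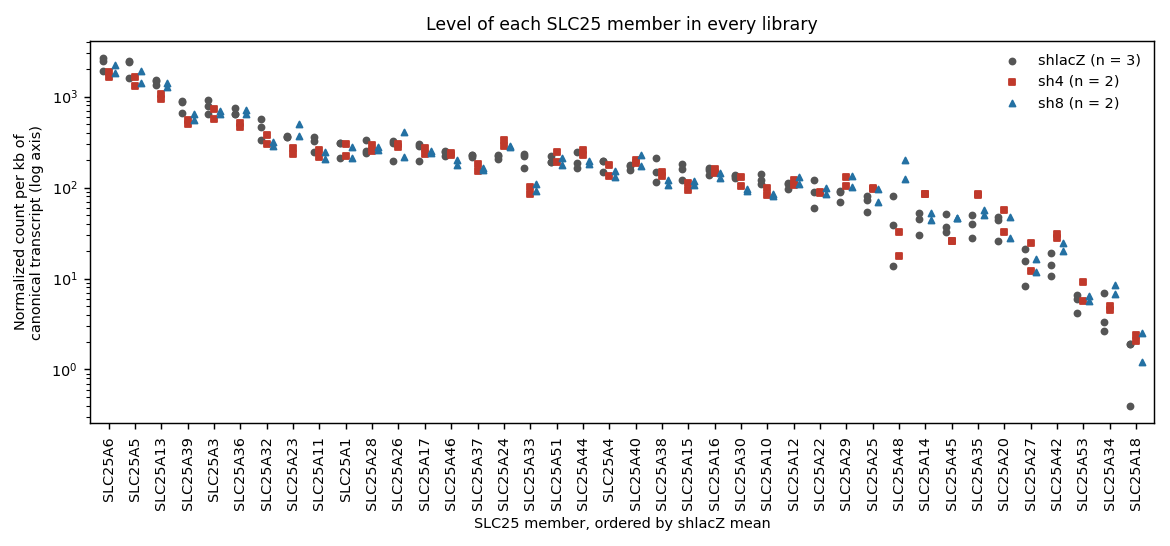
Normalized count per kilobase of the canonical transcript (log axis) for each of the 40 members in every library, ordered by the shlacZ mean, with circles for shlacZ (n = 3), squares for sh4 (n = 2) and triangles for sh8 (n = 2). Levels run from 2340 for SLC25A6 down to 1.40 for SLC25A18, and most symbols of a member lie close together on this axis.

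The promoters of the members were searched for CACGTG, the E-box that MITF is known to bind, and for 3 other motifs. The window from 250 bases before to 50 bases after the annotated start (RefSeq, GRCh38.p14) was at hand for 35 members and was searched on both strands. CACGTG was found in 8 of the 35 (22.9%), against 12.5% of 10448 tested genes. A gene with more than 1 window counted if any of them held the motif. CATGTG, the core of the M-box, was in 4 of 35 (11.4%, against 9.72%), the core motif of NRF1 in 3 (8.57%, against 13.9%), and CGGAAG, a core of ETS factors, in 15 (42.9%, against 39.2%). A match is a string of letters and not a measured site. The 8 members with CACGTG were SLC25A13, SLC25A22, SLC25A26, SLC25A33, SLC25A36, SLC25A38, SLC25A46 and SLC25A51. Of these, SLC25A33, SLC25A13 and SLC25A36 fell under sh4, where 11.9% of all tested genes fell. The log2 fold changes of the other 5 under sh4 lay between -0.12 and 0.11. Under sh8 SLC25A33 alone fell, while SLC25A13 was at -0.10 (adjusted p = 0.687) and SLC25A36 at 0.02 (adjusted p = 0.951). A part of the E-box in these changes was not tested. The windows of the 3 that fell under sh4 are shown 5′ to 3′ on the strand of the gene, with the E-box in capitals. It begins 26 bases before the start in SLC25A33 (chr1:9539215-9539514, plus strand), 154 bases before it in SLC25A13 (chr7:96322049-96322348, minus strand) and 143 bases before it in SLC25A36 (chr3:140941586-140941885, plus strand).
SLC25A33: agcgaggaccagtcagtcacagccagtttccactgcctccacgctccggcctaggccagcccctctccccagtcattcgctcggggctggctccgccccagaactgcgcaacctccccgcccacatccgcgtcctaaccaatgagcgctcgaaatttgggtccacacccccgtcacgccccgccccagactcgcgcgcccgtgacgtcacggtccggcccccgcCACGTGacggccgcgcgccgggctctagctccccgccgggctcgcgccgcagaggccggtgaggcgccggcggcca
SLC25A13: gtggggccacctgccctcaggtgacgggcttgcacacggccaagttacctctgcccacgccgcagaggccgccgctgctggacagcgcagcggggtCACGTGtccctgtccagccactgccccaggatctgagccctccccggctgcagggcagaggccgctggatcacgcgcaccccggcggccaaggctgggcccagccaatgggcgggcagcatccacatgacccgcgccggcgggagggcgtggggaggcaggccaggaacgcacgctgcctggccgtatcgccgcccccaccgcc
SLC25A36: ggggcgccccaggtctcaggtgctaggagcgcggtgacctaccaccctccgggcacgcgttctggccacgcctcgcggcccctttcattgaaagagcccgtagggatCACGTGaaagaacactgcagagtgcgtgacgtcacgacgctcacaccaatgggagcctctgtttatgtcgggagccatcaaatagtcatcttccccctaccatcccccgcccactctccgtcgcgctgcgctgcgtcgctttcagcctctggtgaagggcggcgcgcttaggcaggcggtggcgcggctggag

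The counts for each group of members below stand against these shares of all tested genes. Pooled, 2.55% rose and 2.06% fell, under sh4 10.5% rose and 11.9% fell, and under sh8 1.38% rose and 1.54% fell. Between the hairpins 7% differed. The nucleotide, phosphate and energy carriers numbered 9 tested members, of which 1 fell in the pooled comparison, 1 rose and 3 fell under sh4, and 1 fell under sh8. SLC25A33 (ENSG00000171612, chromosome 1, 9539465 to 9585173, plus strand) brings pyrimidine nucleotides into the matrix. It was measured at 642, 911 and 861 normalized counts under shlacZ, 393 and 331 under sh4, and 424 and 357 under sh8. Every knockdown library was below every control, and the hairpins overlapped with each other. It fell by 55.0% in the mean under sh4 (log2 fold change -1.14, SE 0.18, adjusted p = 0.00226) and by 51.5% under sh8 (-1.03, SE 0.18, adjusted p = 0.0180). Pooled, the change was -1.08 (SE 0.16, adjusted p = 0.00920), and the direct difference between hairpins was -0.11 (SE 0.20, adjusted p = 0.803). The sh4 call remained in all 17 alternatives. The pooled call was lost without shlacZ replicate 2 (adjusted p = 0.0685), without shlacZ replicate 3 (0.0567) and with the replicate number as a block (0.101). The sh8 call was lost without shlacZ replicate 2 (0.0667), shlacZ replicate 3 (0.0597), sh8 replicate 1 (0.0802) or sh8 replicate 2 (0.178), and without the variance trend (0.0927).

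SLC25A36, the other pyrimidine nucleotide carrier, was found at 4266, 3662 and 3635 normalized counts under shlacZ, 2952 and 2652 under sh4, and 3705 and 4100 under sh8. Both sh4 libraries lay below all others, and the sh8 libraries lay within the control range. It fell under sh4, with a log2 fold change of -0.46 (SE 0.12, adjusted p = 0.0237), a call kept in 11 of 17 alternatives. It was lost without sh4 replicate 1 (adjusted p = 0.0670) or sh4 replicate 2 (0.158), and with equal totals, quantile normalization, no variance trend or limma-voom (adjusted p = 0.0754 to 0.100). Under sh8 its change was 0.02 (SE 0.12, adjusted p = 0.951), and the direct comparison of sh4 with sh8 gave -0.48 (SE 0.13, adjusted p = 0.0609), so the hairpins were not shown to differ for SLC25A36, although this difference also passed without shlacZ replicate 1.

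The ATP-Mg/phosphate carriers SLC25A23, SLC25A24 and SLC25A25, which are regulated by calcium, had 1 rise and 1 fall under sh4 and no call under sh8. SLC25A23 (ENSG00000125648, chromosome 19) was measured at 1301, 1264 and 1256 normalized counts under shlacZ, 937 and 825 under sh4, and 1280 and 1738 under sh8. The sh4 libraries were below and the sh8 libraries were within or above the control values. Its log2 fold change was -0.53 (SE 0.15, adjusted p = 0.0269) for sh4 and 0.23 (SE 0.15, adjusted p = 0.453) for sh8, and the hairpins differed by -0.76 (SE 0.16, adjusted p = 0.0207). This difference was lost without sh4 replicate 1 (0.0629), sh4 replicate 2 (0.175) or sh8 replicate 2 (0.142), and without the variance trend (0.0794). The fall under sh4 was kept in 10 of 17 alternatives. It was lost without shlacZ replicate 2, shlacZ replicate 3, or either sh4 library (adjusted p = 0.0661 to 0.174), and with equal totals, no variance trend or limma-voom (0.0613 to 0.0770).

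SLC25A24 had 970, 941 and 876 normalized counts under shlacZ, 1206 and 1411 under sh4, and 1180 and 1211 under sh8. All knockdown libraries were above all controls. It rose under sh4 (log2 fold change 0.49, SE 0.12, adjusted p = 0.0188), whereas the values for sh8 (0.36, adjusted p = 0.152) and for both pooled (0.43, adjusted p = 0.0656) missed the threshold. The rise was lost without shlacZ replicate 3 (0.0772), sh4 replicate 2 (0.149) or the variance trend (0.0533). SLC25A25 ranged from 185 to 279 under shlacZ and from 238 to 341 in the knockdown libraries, with a pooled change of 0.39 (SE 0.20, adjusted p = 0.252).

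The ADP/ATP carriers SLC25A4, SLC25A5 and SLC25A6 and the phosphate carrier SLC25A3, which supply the ATP synthase with its substrates and export its product, did not pass the threshold in any comparison. SLC25A5 was measured at 2111, 3201 and 3107 normalized counts under shlacZ, 1726 and 2165 under sh4, and 1847 and 2484 under sh8. The knockdown libraries overlapped with the first shlacZ library alone. Its log2 fold change was -0.51 (SE 0.20, adjusted p = 0.0981) for sh4 and -0.37 (SE 0.20, adjusted p = 0.378) for sh8. SLC25A6 gave -0.42 (adjusted p = 0.0923) and -0.20 (adjusted p = 0.549), SLC25A3 gave -0.27 and -0.21, and SLC25A4 gave -0.22 and -0.34 in the same order. GENCODE names 9 pseudogenes after SLC25A5, 6 after SLC25A6 and 3 after SLC25A3. The assignment of reads between the genes and these pseudogenes is uncertain and was not tested.

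**Figure D3:**
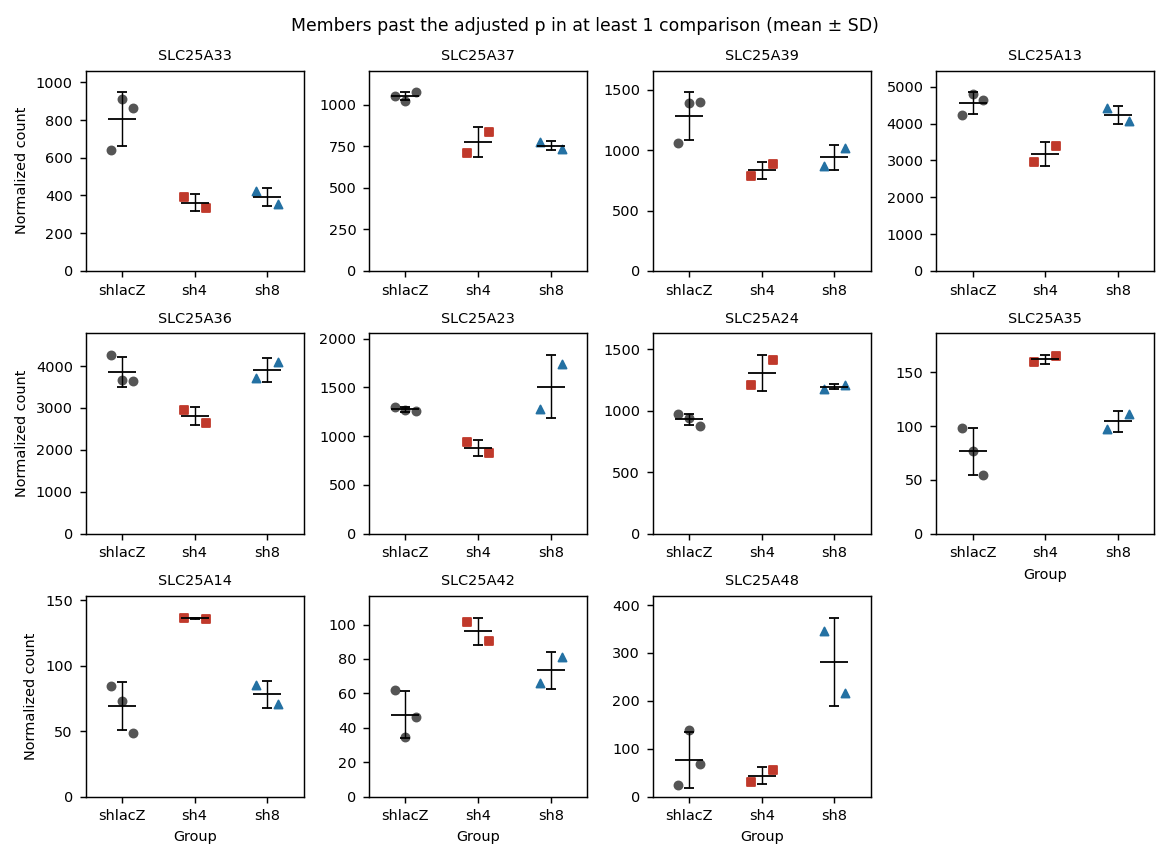
Normalized counts of the 11 members past the adjusted p in at least 1 comparison, in every library of shlacZ (circles, n = 3), sh4 (squares, n = 2) and sh8 (triangles, n = 2), with bars for the mean and the SD and a vertical axis that starts at 0. SLC25A33 lies below the controls under both hairpins, SLC25A13, SLC25A36 and SLC25A23 have both sh4 libraries below all others, and SLC25A48 has both sh8 libraries above all others.

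The carriers of iron, glutathione and acylcarnitine numbered 5 tested members, of which 1 fell in the pooled comparison and 2 fell under sh4. SLC25A37, or mitoferrin-1, imports iron for heme and iron-sulfur cluster synthesis. It was measured at 1055, 1025 and 1075 normalized counts under shlacZ, 713 and 839 under sh4, and 775 and 734 under sh8. The controls spread little and all knockdown libraries were below them. The log2 fold change was -0.46 (SE 0.11, adjusted p = 0.0497) pooled, -0.44 (SE 0.13, adjusted p = 0.0302) for sh4 and -0.48 (SE 0.13, adjusted p = 0.0747) for sh8. The pooled value was close to the threshold and stayed past it in 4 of 17 alternatives. It missed it without any one of the 7 libraries (adjusted p = 0.0560 to 0.191), with the replicate number as a block (0.217), and with no filter on low values, equal totals, quantile normalization, no variance trend or limma-voom (0.0617 to 0.101). The sh4 value stayed past it in 9 of 17. It missed it without shlacZ replicate 2, shlacZ replicate 3, sh4 replicate 1 or sh4 replicate 2 (adjusted p = 0.0555 to 0.221), with the replicate number as a block (0.0669), and with equal totals, no variance trend or limma-voom (0.0633 to 0.0663). The related mitoferrin-2, SLC25A28, had a pooled change of -0.01 (SE 0.15, adjusted p = 0.978).

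SLC25A39, a carrier of glutathione into the matrix, had 1055, 1391 and 1402 normalized counts under shlacZ, 783 and 884 under sh4, and 866 and 1015 under sh8. The knockdown libraries again lay below all controls, by a narrow gap to the first shlacZ library. It fell under sh4 (log2 fold change -0.61, SE 0.16, adjusted p = 0.0207), and sh8 gave -0.44 (SE 0.16, adjusted p = 0.175). The pooled change of -0.53 (adjusted p = 0.0675) was past the threshold without shlacZ replicate 1 (adjusted p = 0.0418). The fall under sh4 was lost without shlacZ replicate 2, shlacZ replicate 3 or either sh4 library (adjusted p = 0.0695 to 0.155), and without the variance trend (0.0659). Its close relative SLC25A40 had 0.22 under sh4 and 0.24 under sh8, neither past the threshold. SLC25A20, which brings acylcarnitines to fatty acid oxidation, spread from 46.4 to 83.8 normalized counts under shlacZ and had a pooled change of 0.07 (SE 0.31, adjusted p = 0.921).

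The amino acid carriers numbered 8 members in the table and 7 tested, with 1 fall under sh4. SLC25A13 (citrin, ENSG00000004864, chromosome 7, 96120220 to 96322147, minus strand) exports aspartate in exchange for glutamate within the malate-aspartate shuttle. Its normalized counts were 4221, 4809 and 4626 under shlacZ, 2948 and 3403 under sh4, and 4412 and 4061 under sh8. The sh4 libraries were below all others and the sh8 libraries overlapped with the controls. It fell by 0.52 on the log2 scale under sh4 (SE 0.12, adjusted p = 0.0119), and its change under sh8 was -0.10 (SE 0.12, adjusted p = 0.687). The call was lost without sh4 replicate 1 (adjusted p = 0.115). The hairpins differed by -0.42 (SE 0.13, adjusted p = 0.0840), which missed the threshold and passed it without shlacZ replicate 1. The other aspartate-glutamate carrier, SLC25A12 (aralar), had 376 to 438 normalized counts under shlacZ and 424 to 511 in the knockdown libraries, with a pooled change of 0.14 (SE 0.14, adjusted p = 0.549).

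SLC25A15, the ornithine carrier of the urea cycle, was at 465, 699 and 613 normalized counts under shlacZ, 357 and 432 under sh4, and 448 and 409 under sh8. All knockdown libraries were below the controls, but the change missed the threshold for sh4 (-0.57, SE 0.19, adjusted p = 0.0531), for sh8 (-0.45, adjusted p = 0.240) and pooled (-0.51, adjusted p = 0.0998), although the last passed without shlacZ replicate 1. SLC25A29, a carrier of basic amino acids, lay in the other direction, at 158 to 209 under shlacZ and 232 to 308 in the knockdown libraries (pooled 0.49, SE 0.18, adjusted p = 0.134). The glutamate carrier SLC25A22, the glycine carrier SLC25A38 and the carrier of branched-chain amino acids SLC25A44 had pooled changes of 0.06, -0.28 and 0.12, none past the threshold.

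Among the carriers of cofactors and vitamins, 6 were tested, of which 1 rose under sh4. SLC25A42, which imports coenzyme A, had 61.9, 34.6 and 46.1 normalized counts under shlacZ, 102 and 90.3 under sh4, and 65.9 and 81.0 under sh8. All knockdown libraries were above the controls, with the first sh8 library only just above. It rose under sh4 (1.04, SE 0.29, adjusted p = 0.0299), and sh8 gave 0.65 (SE 0.29, adjusted p = 0.271). The rise was lost without shlacZ replicate 2, shlacZ replicate 3 or either sh4 library (adjusted p = 0.0687 to 0.184).

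The folate carrier SLC25A32 had 962, 1636 and 1330 normalized counts under shlacZ, 868 and 1086 under sh4, and 911 and 822 under sh8. The sh8 libraries were below all controls. Its change was -0.40 (SE 0.21, adjusted p = 0.197) for sh4 and -0.56 (SE 0.21, adjusted p = 0.182) for sh8, and without shlacZ replicate 1 the sh8 value was -0.77 and past the threshold (adjusted p = 0.0153). The NAD carrier SLC25A51, the S-adenosylmethionine carrier SLC25A26, the peroxisomal carrier SLC25A17 and SLC25A16 had pooled changes between -0.09 and 0.11.

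The di- and tricarboxylate carriers numbered 3, with changes from -0.58 to -0.09 under the single hairpins and none past the threshold. These were the citrate carrier SLC25A1, which feeds acetyl groups to lipid synthesis, the dicarboxylate carrier SLC25A10, and the oxoglutarate carrier SLC25A11 of the malate-aspartate shuttle. SLC25A10 had 237, 214 and 274 normalized counts under shlacZ, 191 and 161 under sh4, and 156 and 165 under sh8. All knockdown libraries were below the controls. The pooled change was -0.52 (SE 0.16, adjusted p = 0.0929), with -0.58 (SE 0.18, adjusted p = 0.126) for sh8. SLC25A11 had a pooled change of -0.39 (adjusted p = 0.173) and SLC25A1 of -0.13 (adjusted p = 0.711).

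Of the 3 relatives of the uncoupling proteins, SLC25A14 rose under sh4. It had 84.6, 73.3 and 48.7 normalized counts under shlacZ, 137 and 136 under sh4, and 85.7 and 71.0 under sh8. The sh4 replicates nearly coincided above all others, and the sh8 libraries overlapped with the controls. The log2 fold change was 1.01 (SE 0.27, adjusted p = 0.0246) for sh4 and 0.21 (SE 0.27, adjusted p = 0.719) for sh8, and the hairpins differed by 0.80 (SE 0.30, adjusted p = 0.146). The rise was lost without shlacZ replicate 3 (0.0745), sh4 replicate 1 (0.138) or sh4 replicate 2 (0.128), and with the replicate number as a block (0.0525). SLC25A30 had a pooled change of -0.34 (SE 0.15, adjusted p = 0.205), and SLC25A27, with 24.1 to 72.3 normalized counts over the 7 libraries, one of 0.15 (SE 0.38, adjusted p = 0.835).

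Of the 6 tested members grouped here as without an assigned or settled substrate, SLC25A35 rose under sh4 and SLC25A48 differed between the hairpins. SLC25A35 had 98.0, 76.5 and 54.8 normalized counts under shlacZ, 159 and 165 under sh4, and 97.5 and 111 under sh8. The sh4 libraries were above all others, and of the sh8 libraries the first lay just inside the control range and the second above it. The log2 fold change was 1.11 (SE 0.26, adjusted p = 0.0141) for sh4 and 0.48 (SE 0.26, adjusted p = 0.370) for sh8. It was lost without sh4 replicate 1 (0.0893) or sh4 replicate 2 (0.0980). RANGRF overlaps SLC25A35 on the opposite strand and had 105 to 159 normalized counts under shlacZ and 91.1 and 111 under sh4. The kit keeps the strand, but the strand setting of the counting was not given in the sources used here, and the share of reads exchanged by overlapping genes was not tested.

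SLC25A48 (ENSG00000145832, chromosome 5, 135476913 to 135889770, plus strand) had the widest spread, with 23.7, 139 and 67.0 normalized counts under shlacZ, 30.5 and 56.0 under sh4, and 347 and 217 under sh8. The sh8 libraries were above all others and the sh4 libraries lay within the controls. The level was lower under sh4 than under sh8, with a log2 difference of -2.70 (SE 0.66, adjusted p = 0.0371). Against the control the change was 2.15 (SE 0.60, adjusted p = 0.0894) for sh8 and -0.54 (SE 0.60, adjusted p = 0.558) for sh4. The difference between hairpins was lost without any one of the 4 knockdown libraries (adjusted p = 0.104 to 0.226) and without the variance trend (0.120). The unnamed gene ENSG00000250378 overlaps it on the same strand and showed the same order of groups, with 5.16, 32.5 and 24.4 normalized counts under shlacZ, 6.78 and 4.48 under sh4, and 91.0 and 32.8 under sh8, the lower sh8 value being close to the highest control. How reads were divided between them was not tested.

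The remaining members of this group were low or little changed. SLC25A45 had 58.7 and 59.0 normalized counts under sh4 and 104 and 105 under sh8, with 73.3 to 115 under shlacZ. Its change was -0.58 for sh4 (adjusted p = 0.123), and the hairpins differed by -0.82 (SE 0.27, adjusted p = 0.107). SLC25A34, with 8.38 to 26.4 normalized counts over the 7 libraries, gave 0.87 for sh8 (SE 0.47, adjusted p = 0.366). SLC25A46, an outer membrane protein of mitochondrial dynamics, had a pooled change of -0.19 (SE 0.13, adjusted p = 0.404), and SLC25A53 one of 0.27 (SE 0.29, adjusted p = 0.610).

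**Figure D4:**
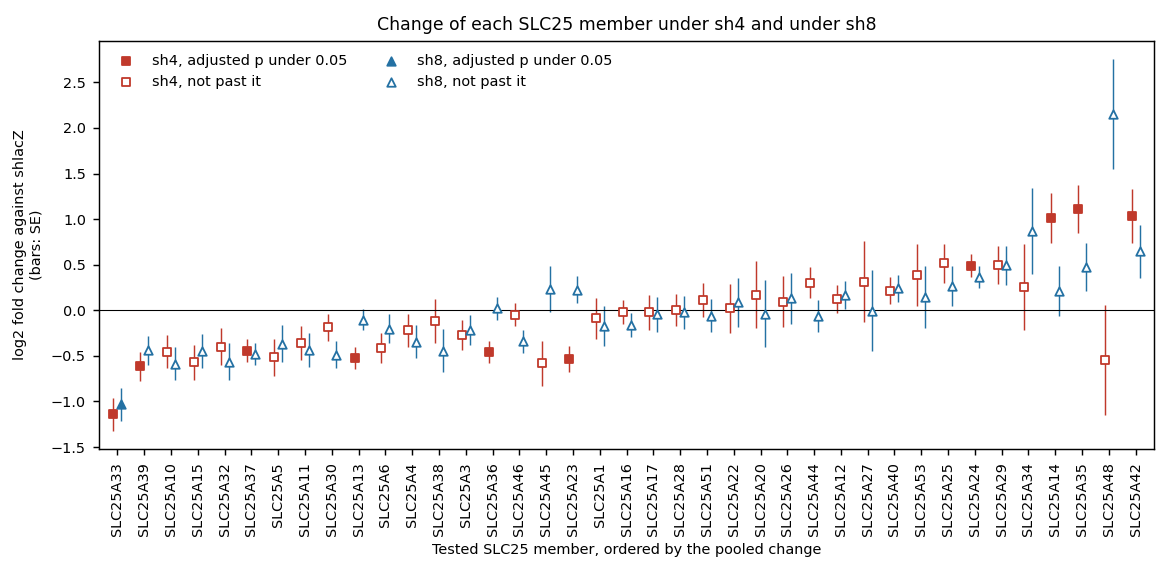
Log2 fold change against shlacZ of the 39 tested members under sh4 (squares) and sh8 (triangles), with bars for the SE and filled symbols where the adjusted p is under 0.05. SLC25A33, at the left end, is the one member with both symbols filled; both comparisons use the same 3 shlacZ libraries.

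The genes around the carriers were read from lists of their partners. Among all tested genes, 2.55% rose and 2.06% fell in the pooled comparison, and 10.5% rose and 11.9% fell under sh4. Under sh8 1.38% rose and 1.54% fell, and these shares are the background for every list below. Of 7 genes for the import and insertion of carriers, TIMM9 fell under sh4 (log2 fold change -0.50, SE 0.14, adjusted p = 0.0280), and the pooled changes of the 7 ran from -0.27 to -0.10, with none past the threshold. Of 19 other mitochondrial transporters, SFXN3 rose and SFXN4 fell in the pooled comparison. The sideroflexin SFXN3 had 838, 713 and 688 normalized counts under shlacZ, 1189 and 1134 under sh4, and 931 and 1259 under sh8, all knockdown libraries being above the controls (pooled 0.59, SE 0.14, adjusted p = 0.0438). SFXN4 had 562, 719 and 626, then 273 and 278, then 448 and 386 normalized counts in the same order, all knockdown libraries being below the controls (pooled -0.90, SE 0.20, adjusted p = 0.0355). Under sh4 this list had 1 rise (SFXN3) and 5 falls (SFXN2, SFXN4, VDAC1, ABCB10 and MCU).

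Of 11 enzymes of the malate-aspartate and citrate shuttles, which work on the metabolites moved by SLC25A1, SLC25A11, SLC25A12 and SLC25A13, 1 fell in the pooled comparison, and the log2 fold changes ran from -0.65 to -0.0035. That was the cytosolic isocitrate dehydrogenase IDH1, at 3473, 3886 and 4262 normalized counts under shlacZ, 1975 and 2273 under sh4, and 2678 and 3062 under sh8 (pooled -0.65, SE 0.16, adjusted p = 0.0478). Under sh4, IDH1 and the citrate synthase CS fell. Of 5 tested mitochondrial one-carbon enzymes, which use the folate brought in by SLC25A32, MTHFD2 fell in every comparison with the control. It had 1806, 2297 and 2094 normalized counts under shlacZ, 542 and 627 under sh4, and 1302 and 1242 under sh8. The groups did not overlap and sh4 was the lowest. The log2 fold change was -1.82 (SE 0.14, adjusted p = 8.00e-05) for sh4 and -0.69 (SE 0.14, adjusted p = 0.0282) for sh8, and the hairpins differed by -1.12 (SE 0.15, adjusted p = 0.00305). SHMT2 and MTHFD1L fell under sh4 as well.

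Of 9 genes of the carnitine shuttle and fatty acid oxidation, around SLC25A20, CRAT and ACADVL rose under sh4. Of 4 tested ornithine and arginine enzymes, around SLC25A15 and SLC25A29, ODC1 fell in the pooled comparison, from 1298, 1845 and 1594 normalized counts under shlacZ to 573 and 937 under sh4 and 896 and 898 under sh8 (-0.95, SE 0.19, adjusted p = 0.0290), and under sh4 ARG2 rose. Of 6 regulators of mitochondrial gene expression, PPARGC1A fell in the pooled comparison. It had 5429, 2749 and 2500 normalized counts under shlacZ, 1902 and 1603 under sh4, and 1475 and 1790 under sh8 (-0.99, SE 0.24, adjusted p = 0.0462), and its first control library was far above the others. PPARGC1A, PPARGC1B, NRF1 and ESRRA fell under sh4, as did 11.9% of all genes. Of the 4 tested family proteins under other symbols, UCP2, UCP3, MTCH1 and MTCH2, the pooled changes lay between -0.29 and 0.04, with none past the threshold.

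The melanocyte markers were read in the same libraries. Of 7 markers, PMEL fell in the pooled comparison (-0.91, SE 0.22, adjusted p = 0.0443), and all but TYR fell under sh4 (11.9% of all genes). PMEL, a structural protein of the melanosome, had 35872, 37928 and 36173 normalized counts under shlacZ, 16968 and 13673 under sh4, and 22806 and 27295 under sh8. The difference of sh4 from sh8 was -0.71 (SE 0.15, adjusted p = 0.0222) for PMEL. MITF, MLANA, TYRP1, DCT and SOX10 were also lower under sh4 than under sh8, as were 3.33% of all genes. The part of these markers in the values of the carriers was not tested.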

How the data were processed

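RNA was sequenced from 7 libraries of 501Mel cells with a doxycycline-induced hairpin (3 shlacZ, 2 sh4 and 2 sh8). Groups and replicate numbers were taken from the sample titles, and table columns were matched to samples by name. According to the methods of the study and the submitters' processing notes, stranded libraries were made from RNA freed of ribosomal RNA. Cutadapt trimmed the reads, STAR placed them on hg38 and Salmon counted the genes, and per the methods of the authors the counts were normalized by them in DESeq2. Neither tool versions nor an annotation release are given in the sources used here. The authors deposited a table of normalized counts, that is, counts divided by 1 size factor per library, so that a shift common to most genes is hidden. Whole reads were recovered for 100% of the entries, within 0.001 reads, and the recovered reads gave the depth of 13337317 to 22855232 reads per library. No gene had fewer than 10 reads summed over the libraries. At this depth counting error is small for the abundant members and limits those under about 100 reads. The table carried no other columns of samples, 4633 genes had no symbol, and 99.9% of the identifiers were found in GENCODE release 44, which gave positions and transcript lengths.

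Normalized counts were tested as log2(value + 1) with limma 3.58.1 (R 4.3.3), two-sided, using a mean-variance trend in its empirical Bayes step. The 15420 genes whose mean was 10 or more entered, and p-values were adjusted by Benjamini-Hochberg over all of them. This scale understates the change of low genes. The pooled comparison had 2 levels. The comparisons of single hairpins came from a fit of 3 groups that shared 1 estimate of the spread. The fit was also run on simulated counts without an outlying control library, so that run does not measure its errors in these data. Named with values were members past the adjusted p, the 3 highest and 3 lowest changes of each comparison, the 5 highest and 5 lowest levels per kilobase, members under the minimum, and genes of the partner lists past the adjusted p in the pooled comparison or under both hairpins. Other members and list genes were named as further values of their groups. A gene found by the rule is not reported here. It stayed in the fits and was left out of every count, sum and median of members. The members, lists and tests were chosen with earlier results of these data known. Alternatives covered the pseudocount, the minimum mean, the scaling, the variance trend, limma-voom on the recovered reads, the replicate number as a block, the groups fitted together, and fits that lacked 1 library. Median transcript lengths were added after seeing the data. Negative binomial tests were not run, because the table writes its decimals with a comma and could not be declared as counts. Promoter windows came from RefSeq (GRCh38.p14), and SLC25A16, SLC25A30, SLC25A32, SLC25A35 and SLC25A37 had no entry.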

Additional observations from a re-analysis of the deposited data

Results flagged for a closer look

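In SLC25A24, 1 of the 4 knockdown libraries, sh4 replicate 2 at 1411 normalized counts, lay apart from the others, with a gap to its neighbour of 0.864 of the range of the 4. In SLC25A25 the second sh8 library, at 238 normalized counts, lay apart below the others by 0.891 of the range. Chance flags about 1 in 20 such groups, and 2 of the 41 sets of values examined were flagged. These sets mix both hairpins.

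Under sh4 and under sh8 the change against the control differed for SLC25A23 (difference of sh4 from sh8 -0.76 on the log2 scale), SLC25A48 (-2.70), the one-carbon enzyme MTHFD2 (-1.12) and the melanosome gene PMEL (-0.71), each by the direct test between the hairpins.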

How the results depend on the processing

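For the 30 changes of named members followed through 509 alternative values, 427 kept their direction and their side of the threshold, 70 lost the adjusted p, 12 gained it and 0 changed sign. The number of members past the adjusted p (2 pooled, 10 under sh4, 1 under sh8, 2 between hairpins) became 1 pooled without the filter on low values, with equal totals, without the variance trend or with limma-voom, and 7 pooled when the mean of both hairpins was taken from the fit with 3 groups, where 16.4% of all genes passed. Without the variance trend it became 5 under sh4, 0 under sh8 and 0 between hairpins, and limma-voom gave 2 under sh8. The number that also passed the fold threshold (1 pooled, 4 under sh4, 1 under sh8, 1 between hairpins) became 2 under sh4 with a pseudocount of 10, 1 under sh4 with quantile normalization, 0 under sh8 with quantile normalization, 0 under sh8 and 0 between hairpins without the variance trend, and 2 under sh8 with limma-voom. The causes were not tested. Leaving out 1 library at a time gave 0 to 4 members pooled, 2 to 17 under sh4, 0 to 7 under sh8 and 0 to 5 between hairpins past the adjusted p, and 0 to 1, 1 to 5, 0 to 2 and 0 to 1 with the fold threshold, where a group of 2 left with 1 library was assumed to vary like the other groups. The change of GRASLND was -0.85 without the variance trend, with adjusted p = 0.0805, and ranged from -0.99 to -0.73 over the fits without 1 library.

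Whether the replicate numbers pair the samples was not settled. The correlations of the deviations of same-numbered libraries were 0.34, 0.12, 0.21, -0.08, 0.03 and 0.03. In a group of 2 libraries the deviations mirror each other, so these values are not independent and cannot decide it. With the replicate block, 0 members passed the adjusted p pooled, 9 under sh4, 1 under sh8 and 2 between hairpins, and 0, 2, 0 and 1 also passed the fold threshold. GRASLND was then at -0.90 (adjusted p = 0.150).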

Other observations

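The small nucleolar RNA SNORA53 lies within SLC25A3 on the same strand and was looked up for this overlap after its values were seen. It had 99.1, 92.2 and 100 normalized counts under shlacZ, 313 and 402 under sh4, and 199 and 388 under sh8, so that all knockdown libraries were above the controls. Its pooled log2 fold change was 1.68 (SE 0.24, adjusted p = 0.00878), with 1.86 (adjusted p = 0.00129) for sh4 and 1.51 (adjusted p = 0.0180) for sh8. SLC25A3 itself had a pooled change of -0.24 (SE 0.15, adjusted p = 0.340). Of the 40 members, 8 overlapped no other annotated gene.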
